A study of Macaca mulatta with 449 samples.

Results

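The cuneus gyrus (CuG) of the rhesus macaque was compared with the other sub-regions of the parietal lobe. Its samples were taken by their labels, as those of the sub-region that the study assigns to the parietal lobe and numbers 20, and gave 8 samples of 408 in the gene count table and of 449 in the whole series. The other parietal sub-regions are numbers 12 to 19 and gave 64 samples: the superior and inferior postcentral gyri (SPCG and IPCG), the superior parietal lobule (SPL), the posterior superior parietal gyrus (PSPG), the intraparietal sulcus (IPS), the anterior/posterior marginal gyrus (AMG/PMG), the angular gyrus (ALG) and the annectant gyri (ATG). A further 24 samples came from the anterior superior, posterior superior and inferior occipital gyri (aSOG, pSOG and IOG), numbers 21 to 23. Each sub-region was sampled once in each of 8 animals, 4 male and 4 female. In each sex 2 animals were young (3.2 to 5 years in all) and 2 were mid-aged (9.8 to 10 years). The animals keep the numbers of their labels: animals 2 and 3 were mid-aged males, 7 and 8 young males, 6 and 11 mid-aged females, and 4 and 10 young females. Each library was made from a small piece of bulk cortex after removal of ribosomal RNA, so that fewer cells of a type and less RNA per cell cannot be told apart.

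The cuneus lies on the medial face of the hemisphere, in a part of the cortex that serves vision. Its place in the parietal lobe is the study's own grouping. Visual cortex of primates is known for a thick granular layer 4 that receives thalamic input, for many fast-spiking interneurons that contain parvalbumin, and for a group of transcripts that are more abundant there than in other cortex. The postcentral gyri are somatosensory cortex, and most other parietal gyri are association cortex, which joins information from several senses. The comparison asked which of these features the transcriptome of the cuneus shares or lacks.

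The 8 cuneus libraries held 9372713 to 14996821 counted reads (median 11202005), and the 64 parietal libraries held 7784678 to 15173822. Within each animal the 8 parietal libraries were summed, which gave 75378200 to 93176942 reads, so that the parietal value is an average over 8 tissue pieces and the cuneus value rests on 1. The cuneus and parietal values of an animal deviated together from their group means (r = 0.243 to 0.689), and the deviation of each cuneus library correlated best with that of its own animal. The cuneus libraries of animals 6 and 8 often stood nearest to parietal values.

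In the edgeR quasi-likelihood test with the animal as a block, 235 of 17579 genes were higher in the cuneus and 435 were lower at a Benjamini-Hochberg adjusted p (FDR) below 0.05. These are 1.34% and 2.47% of the genes tested. Most differences were small: the median log2 fold change (log2FC, cuneus over parietal) was 0.48 among the genes called higher and -0.55 among those called lower, against -0.02 over all genes tested. A change above 2-fold was reached by 32 of the genes called higher and by 92 of those called lower, or 0.182% and 0.523% of genes. Of the called genes, 154 were higher in 8 of 8 animals and 319 were lower in 8 of 8 animals. Of all genes tested, 1.87% and 3.46% had such a direction. The test is made within animals, so that agreement of sign among the called genes follows in part from their selection and is no further support. DESeq2 called 678 genes higher and 757 lower, and a fit to the 72 single libraries called 1083 and 1120, so that the excess of lower genes was smaller in both. The excess was larger with no filter on low counts (147 and 414). It was also larger with the study's detection rule as filter, a count above 1 in at least 3 samples (171 and 474). The number of calls depended on single animals. It fell to 50 and 138 without animal 2, to 97 and 223 without animal 3, to 122 and 287 without animal 4, to 71 and 157 without animal 7, to 54 and 124 without animal 10 and to 84 and 147 without animal 11, and it rose to 326 and 519 without animal 6 and to 583 and 847 without animal 8.

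FSTL1, which encodes a secreted glycoprotein, was 2.27-fold higher in the cuneus. Its level ran from 112 to 339 CPM in the 8 cuneus libraries (median 218) and from 81.3 to 105 CPM in the parietal sums (median 93.0). The groups did not overlap, and the lowest cuneus values belonged to animal 6 (112 CPM) and animal 8 (140 CPM). The log2FC was 1.18 ± 0.16 (SE, n = 8 animals, edgeR FDR = 0.00559). No overlap with the cuneus above was found for 11 of all genes tested (0.0626%). PVALB, the calcium-binding protein of fast-spiking interneurons, had 47.7 to 124 CPM in the cuneus (median 90.6) and 46.8 to 68.6 CPM in the parietal sums (median 58.0). It was higher in 7 of 8 animals, and in animal 6 the cuneus was lower, at 47.7 against 59.8 CPM. Its log2FC was 0.58 ± 0.13 (SE, edgeR FDR = 0.0346), and the call was lost without animal 2, 3, 7, 10 or 11 (FDR up to 0.105).

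OSTN, which encodes osteocrin, a secreted peptide induced by neuronal activity in primates, had 3.25 to 46.9 CPM in the cuneus (median 24.03) against 3.53 to 9.29 CPM in the parietal sums (median 6.24). The spread among cuneus libraries was far wider than among parietal sums. Animals 2, 4, 7 and 10 had 30.8 CPM or more in the cuneus, animals 3, 6 and 11 had 9.63 to 17.3 CPM, and animal 8 had 3.25 CPM, below its own parietal value of 6.31. The log2FC of 1.75 ± 0.46 (SE) did not pass the test (edgeR FDR = 0.0603). Without animal 8 it was 2.08 ± 0.36 and without animal 6 it was 2.00 ± 0.46, with edgeR FDR of 0.00775 and 0.0361. OSTN also passed with DESeq2 (adjusted p = 0.00876), without the replicate block, with a covariate for transcript integrity (medTIN), over single libraries and when the postcentral gyri were left out of the sum (edgeR FDR = 0.0117).

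**Figure D1:**
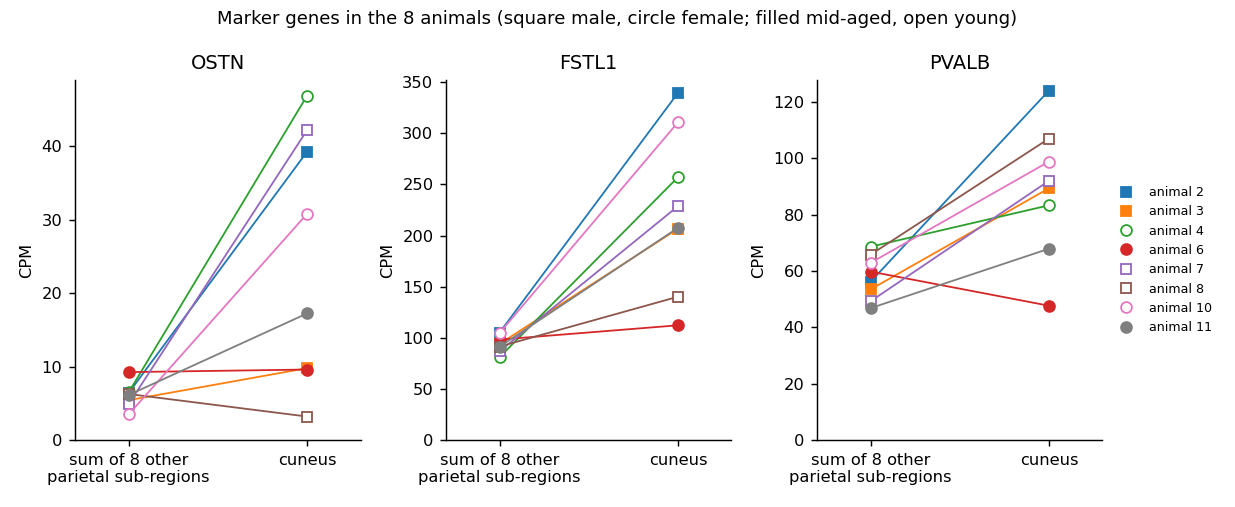
Level in CPM (vertical axis, from 0) of OSTN, FSTL1 and PVALB in the parietal sum and in the cuneus of each of 8 animals, joined by a line (squares male, circles female; filled mid-aged, open young). FSTL1 rises in 8 of 8 animals and OSTN and PVALB in 7 of 8, with the exceptions in animal 8 (OSTN) and animal 6 (PVALB).

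The 12 genes with the largest increase that was alike in 8 of 8 animals included 4 whose groups did not overlap: NOX3, MSC, FSTL1 and ISLR. The study's own module of occipital genes, found on these samples, holds NOX3, MSC, FSTL1, PLK5, IL15, TRPA1, DPP4 and KCNH8. It does not hold ISLR, NPR1 or SEMA3D. NOX3, an NADPH oxidase best known from the inner ear, had 1.76 to 8.62 CPM in the cuneus (median 3.06) and 0.519 to 1.65 CPM in the parietal sums (median 0.679), with a log2FC of 2.15 ± 0.17 (SE, edgeR FDR = 0.000786). It was the largest increase of the set, 4.44-fold. MSC, a basic helix-loop-helix transcription factor, had 4.82 to 15.3 CPM against 1.76 to 3.49 CPM (log2FC 1.63 ± 0.18, edgeR FDR = 0.00235). ISLR, a protein with leucine-rich repeats, had 6.16 to 9.73 CPM against 2.94 to 4.69 CPM (log2FC 1.06 ± 0.11, edgeR FDR = 0.00186), and here animal 6 had the highest cuneus value. PLK5, a member of the polo-like kinase family, had a log2FC of 1.95 ± 0.26, with 1.58 to 10.3 CPM in the cuneus and 0.706 to 1.60 CPM in the parietal sums, where only the lowest cuneus value lay inside the parietal range.

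Several of the other genes in this set encode membrane channels and receptors. TRPA1, a cation channel opened by irritants, had 2.50 to 6.54 CPM against 1.64 to 3.12 CPM (log2FC 1.15 ± 0.19). KCNH8, a voltage-gated potassium channel, had 5.84 to 24.2 CPM against 3.31 to 7.36 CPM (log2FC 1.03 ± 0.19). NPR1, the receptor of atrial natriuretic peptide, had 5.05 to 13.9 CPM against 2.11 to 5.89 CPM (log2FC 1.28 ± 0.12). Secreted and cell surface proteins were the cytokine IL15 (log2FC 1.44 ± 0.24), the guidance molecule SEMA3D (log2FC 1.24 ± 0.20) and the peptidase DPP4 (log2FC 1.13 ± 0.15). MSC and TRPA1 overlap the same non-coding gene in the RefSeq annotation of a newer macaque assembly, and the strand option of the counting is not stated, so that reads of overlapping genes may not be told apart. The edgeR calls of IL15 (without animal 2) and KCNH8 (without animal 2, 7 or 10) were lost in leave-one-out fits (FDR up to 0.0516 and 0.0637), and those of the other 9 genes reported were kept in all of them.

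The 12 genes with the largest decrease included 7 whose groups did not overlap: RHAG, SPINK5, FFAR4, FREM3, CACNG6, HTR1A and RBP4. No overlap with the cuneus below was found for 47 of all genes tested (0.267%). The rule for this set asked for a mean of 1 CPM only in the higher group, here the deeper parietal sums. RHAG and SPINK5 had 9 and 24 reads over all 8 cuneus libraries, against 782 and 1309 in the parietal sums. Their cuneus values lie near the floor, so that their lack of overlap and the size of their change rest on few cuneus reads. FREM3, an extracellular matrix protein, had 2.27 to 22.9 CPM in the cuneus (median 5.07) against 23.9 to 47.8 CPM in the parietal sums (median 33.4), a log2FC of -2.46 ± 0.36 (SE, edgeR FDR = 0.00609). Animal 6 was nearly level, at 22.9 against 23.9 CPM, and the next highest cuneus value was 10.9 CPM in animal 11. RBP4, the carrier of retinol, had 3.21 to 17.3 CPM (median 8.09) against 18.4 to 34.4 CPM (median 24.6), with a log2FC of -1.71 ± 0.25 (SE, edgeR FDR = 0.00609). The highest cuneus values were those of animals 8 and 6, at 17.3 and 15.3 CPM. HTR1A, an inhibitory serotonin receptor, had 0.262 to 3.61 CPM (median 2.51) against 5.06 to 8.78 CPM (median 6.10), with a log2FC of -1.92 ± 0.34 (SE, edgeR FDR = 0.0134).

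CACNA1H, the pore of a T-type calcium channel, had 5.83 to 18.9 CPM in the cuneus against 15.4 to 43.3 CPM in the parietal sums (log2FC -1.66 ± 0.18). CACNG6, an auxiliary gamma subunit of calcium channels, had 0.462 to 1.57 CPM against 2.55 to 5.10 CPM (log2FC -2.07 ± 0.21). FFAR4, a receptor for long-chain fatty acids, had 0.0655 to 2.79 CPM against 3.72 to 8.38 CPM (log2FC -2.59 ± 0.44). The lowest counts belonged to RHAG, an ammonium transporter known from red blood cells. RHAG was at 0 in 5 of 8 cuneus libraries, with 9 reads over all 8, against 0.523 to 2.40 CPM in the parietal sums (log2FC -3.48 ± 0.50). SPINK5, a serine protease inhibitor, was at 0 in 3 of 8 cuneus libraries, with 24 reads in all (log2FC -2.89 ± 0.41). CLIC6, of the chloride intracellular channel family, was at 0 in 4 of 8 cuneus libraries, with 31 reads in all (log2FC -3.01 ± 0.69). Of the 31 CLIC6 reads, 21 came from animal 6, and without that animal the log2FC was -4.36 ± 0.66 (SE, edgeR FDR = 0.00601). The remaining genes were the uncharacterised C4H6orf141 (log2FC -1.98 ± 0.30), OASL of the antiviral oligoadenylate synthetase family (log2FC -1.83 ± 0.27) and the desmosomal cadherin DSG3 (log2FC -1.80 ± 0.43). The edgeR calls of CLIC6 and DSG3 were each lost without animal 2, 3, 4, 7, 10 or 11 (FDR up to 0.104 and 0.138), and those of the other 10 genes were kept in every leave-one-out fit.

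**Figure D2:**
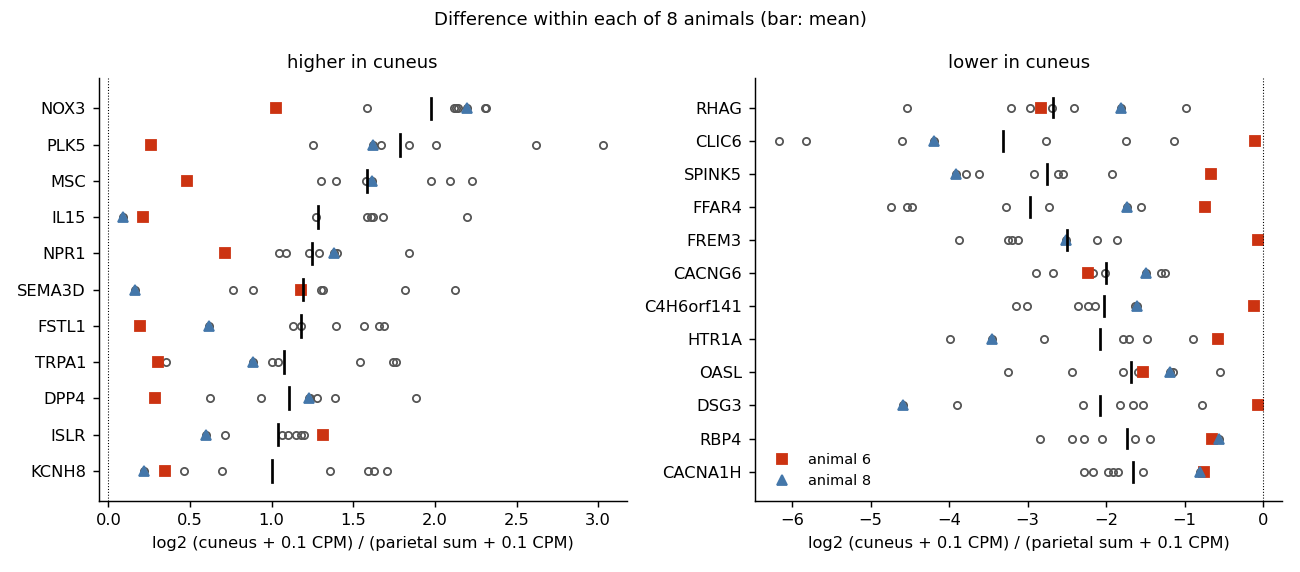
Difference between cuneus and parietal sum within each animal (horizontal axis, log2 ratio after adding 0.1 CPM to both) for 11 of the 12 genes with the largest increase and the 12 with the largest decrease by the edgeR fit; each symbol is 1 of 8 animals and the bar is the mean. Animal 6 (red squares) lies closest to 0 for most of the genes shown, FREM3, CLIC6, DSG3 and PLK5 among them. Another animal lies closest for the rest, ISLR and CACNG6 among them. Animals 6 and 8 were marked after their values were seen.

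Set against each parietal sub-region in turn, over 72 libraries and 15339 genes, the fewest genes were called between the cuneus and the annectant gyri and the most between the cuneus and the marginal gyrus. By the mean correlation of whole profiles, the lowest of the 8 was that with the superior parietal lobule (0.965, against 0.972 with the marginal gyrus). Against the annectant gyri, 23 genes were higher and 1 was lower (0.156% of genes in all). Against the anterior/posterior marginal gyrus, 1841 were higher and 1850 lower (24.1%). Between these lay the superior postcentral gyrus with 277 and 336 genes (4.00%), the inferior postcentral gyrus with 618 and 736 (8.83%), the angular gyrus with 636 and 799 (9.36%), the intraparietal sulcus with 644 and 747 (9.07%), the posterior superior parietal gyrus with 651 and 751 (9.14%) and the superior parietal lobule with 1066 and 1338 (15.7%). Each of these comparisons had 8 libraries a side. Whether the counts differ between sub-regions was not tested.

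**Figure D3:**
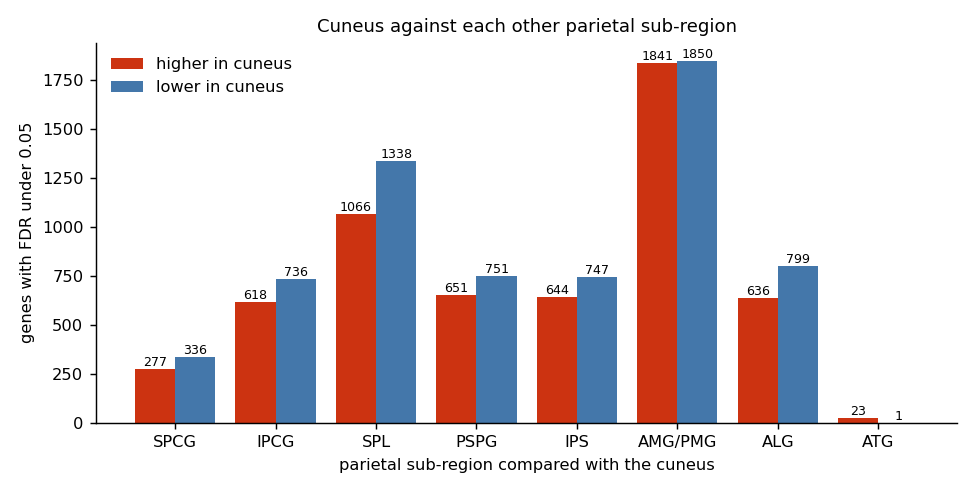
Number of genes with an edgeR FDR below 0.05 (vertical axis) that were higher (red) or lower (blue) in the cuneus than in each of the 8 other parietal sub-regions (horizontal axis). The annectant gyri (ATG) give 23 and 1 genes, and the marginal gyrus (AMG/PMG) gives 1841 and 1850.

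In these comparisons 7 genes were above each of the 8 other parietal sub-regions (0.0456% of genes), and KLK7 alone was below each of them (0.00652%). The 7 were EYA1, NTNG1, PDE3A, ASB5, SSBP2, GCA and TLE4. Of these, EYA1, NTNG1, PDE3A, ASB5 and SSBP2 belong to the study's own module of occipital genes, and TLE4 does not. Leaving the annectant gyri aside, 107 of 15339 genes were above and 127 were below each of the 7 remaining sub-regions. The comparison with the annectant gyri alone called 24 genes (0.156%), which limits the count against all 8. Without the animal block no gene was above or below all 8, and DESeq2 found 10 and 4. PDE3A, a cyclic nucleotide phosphodiesterase, had the largest smallest difference of the 7, with log2FC from 0.74 (annectant gyri) to 1.25 (superior parietal lobule). The call of PDE3A against the parietal sum was lost without animal 2, 10 or 11 (edgeR FDR up to 0.055). EYA1, a transcriptional coactivator, had log2FC from 0.60 to 1.32, and ASB5, an ankyrin repeat protein, from 0.71 to 1.13; against the parietal sum the call of ASB5 was lost with no filter on low counts (edgeR FDR = 0.0526). NTNG1, the membrane-bound netrin G1 of axons, differed by 0.35 to 0.64, the calcium-binding protein GCA by 0.45 to 0.67, the DNA-binding protein SSBP2 by 0.31 to 0.51 and the corepressor TLE4 by 0.33 to 0.63 on the log2 scale. KLK7, a secreted serine protease, was lower by a log2FC of -1.61 against the marginal gyrus and of -0.53 against the annectant gyri. The largest edgeR FDR of any of these genes in any of the 8 comparisons was 0.0377, for KLK7 against the annectant gyri.

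The order of the sub-regions differed among the 3 marker genes. On CPM of single libraries, OSTN averaged 24.9 ± 16.8 in the cuneus (SD, n = 8), 15.6 ± 8.35 in the superior and 10.1 ± 2.25 in the inferior postcentral gyrus, 7.08 ± 2.24 in the annectant gyri and 1.86 ± 1.06 in the marginal gyrus. It was higher in the cuneus than in 7 of the 8 sub-regions, the superior postcentral gyrus being the exception (log2FC 0.71, edgeR FDR = 0.179). FSTL1 averaged 227 ± 75.3 CPM in the cuneus, 180 ± 33.5 CPM in the annectant gyri and 48.8 ± 8.21 CPM in the marginal gyrus. FSTL1 had no difference beyond the spread from the annectant gyri (log2FC 0.31, edgeR FDR = 0.652) and was higher than in the other 7 sub-regions. PVALB averaged 89.3 ± 22.95 CPM in the cuneus, 84.8 ± 16.01 CPM in the inferior and 77.8 ± 15.8 CPM in the superior postcentral gyrus, and 80.5 ± 16.03 CPM in the annectant gyri. For PVALB these 3 neighbours in the order did not differ from the cuneus beyond their spread (edgeR FDR of 0.736, 0.559 and 0.883), and the other 5 were lower.

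**Figure D4:**
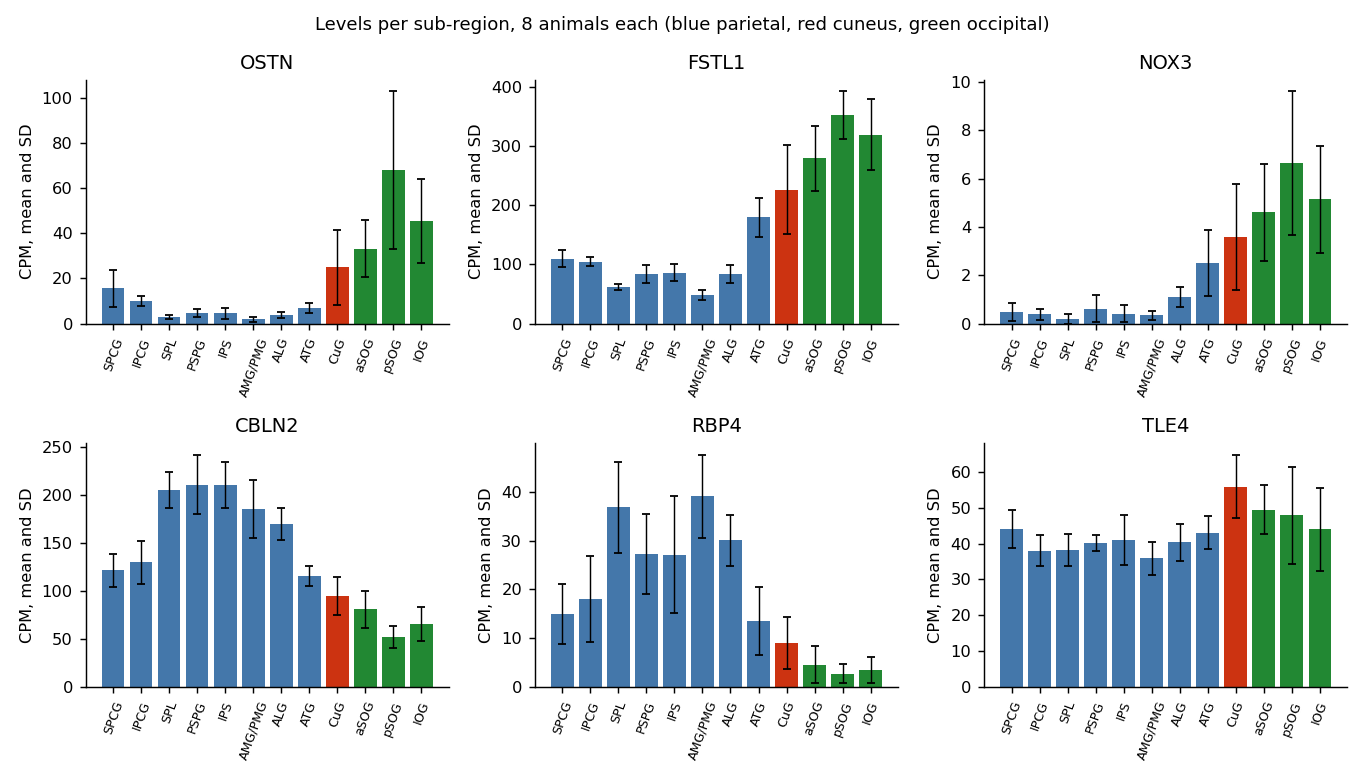
Mean level in CPM of single libraries (vertical axis; error bars SD over 8 animals) of 6 genes in the 8 other parietal sub-regions (blue), the cuneus (red) and the 3 occipital sub-regions (green). FSTL1 and NOX3 are higher in the occipital sub-regions than in the cuneus, and CBLN2 and RBP4 are lower there. OSTN did not pass against the occipital sum (edgeR FDR = 0.182). TLE4 has its highest mean, 55.9 CPM, in the cuneus, but did not pass against the occipital sum (edgeR FDR = 0.2235).

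Of 15 genes described in visual cortex of primates, all of them tested, 10 were higher in the cuneus, 1 was lower and 4 did not pass the test. Over all genes 1.34% were called higher and 2.47% lower. The median log2FC of the list was 0.75, against -0.02 for all genes. The study's own module of occipital genes, which was found on these samples, holds 13 of the 15, so that the list is not independent evidence of its direction. Beside FSTL1 and PVALB the increased members included EYA1 (log2FC 0.81 ± 0.14, edgeR FDR = 0.0139), CHRM2, a muscarinic acetylcholine receptor (0.77 ± 0.16), VAV3, a guanine nucleotide exchange factor (0.75 ± 0.13), PCP4, a calmodulin regulator (0.74 ± 0.15), NTNG1 (0.49 ± 0.10), HTR2A, an excitatory serotonin receptor (0.48 ± 0.10), and HS3ST1, a heparan sulfate sulfotransferase (0.62). The member that fell was NEFH, the heavy neurofilament of large axons (log2FC -0.34 ± 0.08), whose call was lost when the postcentral gyri were left out of the sum (log2FC -0.12, edgeR FDR = 0.461). Against single sub-regions NEFH was lower than in the superior and inferior postcentral gyri and the intraparietal sulcus (log2FC -0.91, -0.82 and -0.39), higher than in the marginal gyrus (log2FC 0.34, edgeR FDR = 0.00664) and not called against the other 4. VAV3 was higher in 7 of 8 animals, with 38.5 against 39.3 CPM in animal 6. HTR2A was higher in 7 of 8 animals, with 82.9 against 97.5 CPM in animal 8. FSTL1 kept its call without any 1 animal, while those of VAV3, EYA1, CHRM2, PCP4, NTNG1, HTR2A and NEFH were each lost without at least 1 of animals 2, 3, 4, 6, 7, 10 and 11 (edgeR FDR up to 0.113). The module itself had 101 of its 230 genes higher and 5 lower in the cuneus, with a median log2FC of 0.43.

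**Figure D5:**
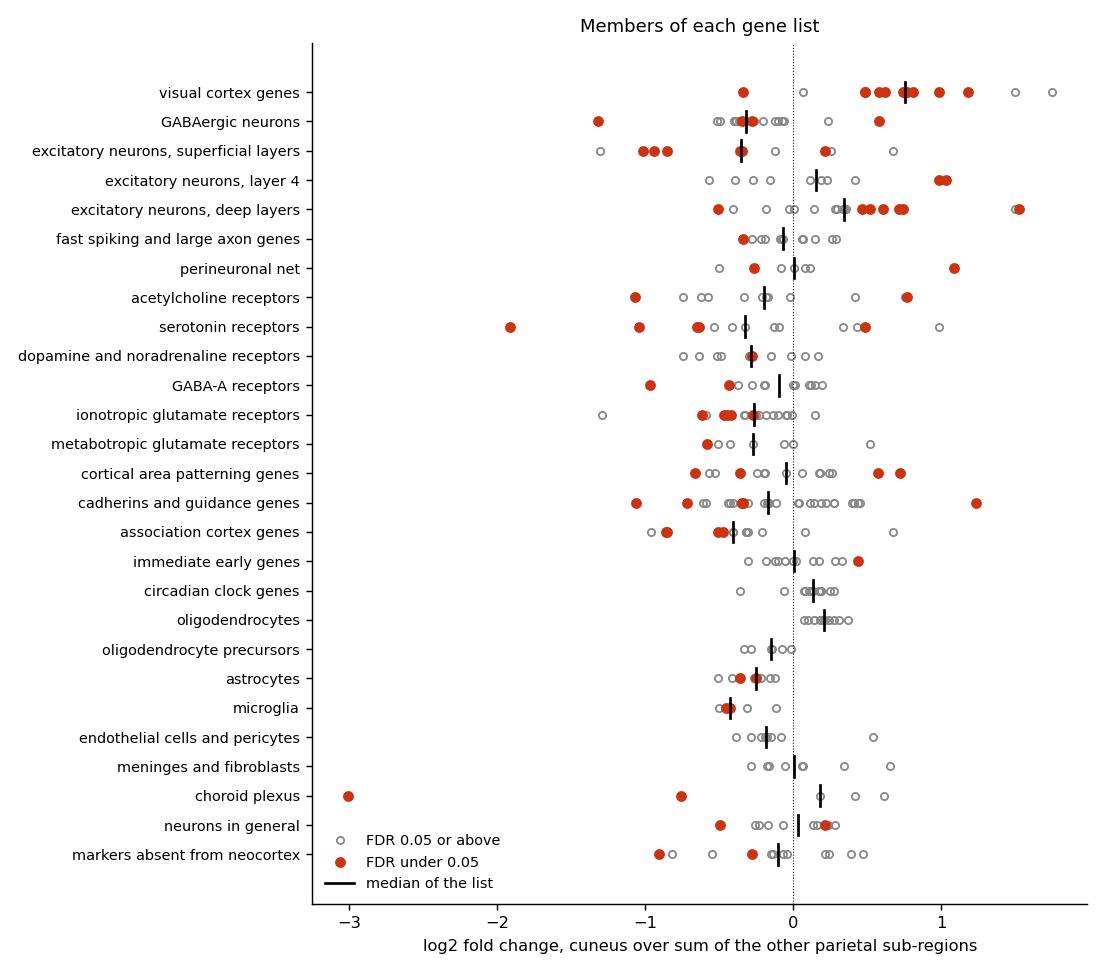
Log2 fold change of cuneus over parietal sum (horizontal axis) of each tested member of 27 gene lists (rows); filled red points have an edgeR FDR below 0.05, open points do not, and the bar is the median of the list. The visual cortex genes have the highest median, 0.75, and the microglial genes the lowest, -0.43.

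Genes of excitatory neurons are given by layer, beside 1.34% higher and 2.47% lower over all genes, and the lists were not tested against each other. Of 18 deep layer genes tested, 6 were higher and 1 was lower, with a median log2FC of 0.34. TLE4 had 39.1 to 68.2 CPM in the cuneus (median 57.3) against 35.5 to 42.8 CPM in the parietal sums (median 40.3), with a log2FC of 0.46 ± 0.07 (SE, edgeR FDR = 0.00609). SEMA3E, a semaphorin, had 2.60 to 22.6 CPM against 2.20 to 4.62 CPM, with a log2FC of 1.53 ± 0.30 (SE, edgeR FDR = 0.0209) and the cuneus lower in animal 8. RXFP1, a relaxin receptor, had a log2FC of 0.61 ± 0.11 in 8 of 8 animals. PCP4, NR4A2 and SULF1 were also higher, and CRYM was lower. Of 10 superficial layer genes, 5 were lower and 1 was higher, with a median log2FC of -0.36. RASGRF2, an exchange factor of Ras, had 146 to 439 CPM against 378 to 606 CPM (log2FC -0.94 ± 0.14), COL5A2, a collagen, had 12.8 to 26.99 CPM against 21.95 to 65.2 CPM (log2FC -1.01 ± 0.14), and WFS1, a membrane protein of the endoplasmic reticulum, had 53.5 to 166 CPM against 116 to 195 CPM (log2FC -0.85 ± 0.12). LMO4 and CALB1 were lower too. In animal 6 the cuneus had more RASGRF2 (439 against 418 CPM) and CALB1 (56.3 against 55.4 CPM) than the parietal sum, and nearly as much WFS1 (166 against 174 CPM). Of 10 layer 4 genes, 2 were higher, KCNH8 among them, and 8 did not pass. TLE4, RXFP1, RASGRF2, COL5A2 and WFS1 kept their calls without any 1 animal, and those of SEMA3E, PCP4, KCNH8, LMO4 and CALB1 were each lost without at least 1 of animals 2, 3, 4, 7, 10 and 11 (edgeR FDR up to 0.133).

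PVALB was the GABAergic gene called higher. Of 19 such genes tested, it was higher, 3 were lower and 15 did not pass, against 1.34% higher and 2.47% lower over all genes, and the median log2FC was -0.32. CALB2, the calretinin of another interneuron class, had 0.580 to 4.08 CPM in the cuneus against 2.59 to 5.46 CPM (log2FC -1.32 ± 0.24, edgeR FDR = 0.0142). LHX6, a transcription factor of interneurons from the medial ganglionic eminence, had a log2FC of -0.28 ± 0.06, and the calbindin CALB1 of -0.35 ± 0.08. GAD1 and GAD2, the GABA-synthesising enzymes, had log2FC of -0.13 and -0.06 and did not pass. Of 12 genes of fast-spiking neurons and large axons, NEFH was lower, though not without the postcentral gyri in the sum and not against the marginal gyrus, where it was higher, and 11 did not pass. Of 7 genes listed for the perineuronal net, the matrix around such neurons, BCAN was lower (log2FC -0.26 ± 0.06) and 5 did not pass. HPSE2, which was on the list but encodes a heparanase homolog rather than a part of the net, was higher. Its log2FC was 1.08 ± 0.21, with 3.06 against 3.52 CPM in animal 6. The call of CALB1 was lost with DESeq2 size factors (edgeR FDR = 0.0566). The calls of PVALB, CALB2, LHX6, CALB1, NEFH, HPSE2 and BCAN were each lost without at least 1 of animals 2, 3, 4, 6, 7, 10 and 11 (edgeR FDR up to 0.133).

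Most transmitter receptor genes did not pass the test, and those that did are named here beside 1.34% higher and 2.47% lower over all genes. Of 13 serotonin receptors tested, HTR2A was higher and HTR1A, HTR1E, HTR3A and HTR6 were lower. HTR6, a receptor coupled to adenylyl cyclase, had 9.11 to 18.3 CPM against 15.6 to 22.8 CPM (log2FC -0.64 ± 0.10, edgeR FDR = 0.00697). HTR3A, a serotonin-gated channel, had 0.812 to 3.37 CPM against 1.65 to 11.4 CPM (log2FC -1.04 ± 0.18). Of 12 acetylcholine receptors, CHRM2 was higher, at 16.6 to 50.7 CPM against 11.96 to 19.5 CPM, and the nicotinic subunit CHRNA6 was lower (log2FC -1.07 ± 0.25). Of 11 dopamine and noradrenaline receptors, DRD1 was lower (log2FC -0.27 ± 0.07, edgeR FDR = 0.0489). Of 18 ionotropic glutamate receptor subunits, 5 were lower and none was higher, with a median log2FC of -0.26. GRIA4, an AMPA receptor subunit, did not overlap between groups, at 86.7 to 108 CPM against 109 to 127 CPM (log2FC -0.27 ± 0.05). GRIA1, another AMPA subunit, had a log2FC of -0.45 ± 0.08, and the NMDA receptor subunits GRIN3A and GRIN2D of -0.46 ± 0.09 and -0.62 ± 0.13. Of 7 metabotropic glutamate receptors, GRM2 was lower (log2FC -0.58 ± 0.12). Of 12 GABA-A receptor subunits, GABRA3 (log2FC -0.97 ± 0.21) and GABRA5 (log2FC -0.44 ± 0.09) were lower. In animal 6 the log2 difference was 0.07 for GABRA3, 0.01 for GABRA5, 0.01 for GRIN3A and -0.02 for GRIA1, so that the cuneus was nearly level with the parietal sum. Of these receptors, HTR1A, HTR3A and HTR6 kept their calls without any 1 animal, while CHRM2, HTR2A, CHRNA6, DRD1, GABRA3, GABRA5, GRM2 and the 4 named glutamate receptor subunits each lost theirs without at least 1 of animals 2, 3, 4, 7, 10 and 11 (edgeR FDR up to 0.156 for DRD1). The call of DRD1 was also lost with DESeq2 size factors (edgeR FDR = 0.0631) and with no filter on low counts (edgeR FDR = 0.0543).

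Of 13 genes described as more abundant in association cortex, 4 were lower in the cuneus and none was higher, against 2.47% lower and 1.34% higher over all genes, with a median log2FC of -0.40. CBLN2, a secreted synaptic organiser, did not overlap, with 75.1 to 132 CPM in the cuneus (median 87.5) against 148 to 185 CPM in the parietal sums (median 168), a log2FC of -0.86 ± 0.10 (SE, edgeR FDR = 0.00329). The highest cuneus value was that of animal 6. KCNG1, a modifier of potassium channels, had a log2FC of -0.85 ± 0.13, GAP43, a protein of growing axon terminals, of -0.47 ± 0.09 and CRYM, the mu-crystallin, of -0.51 ± 0.11. Of 15 genes that pattern cortical areas in development, the zinc finger factors TSHZ3 and TSHZ1 were higher and SP8 and LMO4 were lower. TSHZ3 did not overlap, with 53.8 to 95.3 CPM against 37.7 to 50.2 CPM (log2FC 0.72 ± 0.07, edgeR FDR = 0.00186). TSHZ1 had 47.5 to 103 CPM against 46.9 to 61.0 CPM (log2FC 0.57 ± 0.08). Of 30 cadherins and guidance genes, SEMA3D was higher and 5 were lower: CDH6, CDH22, PCDH8, SLIT1 and ROBO2. PCDH8, a protocadherin, had 66.2 to 145 CPM against 117 to 158 CPM (log2FC -0.72 ± 0.10). CBLN2, KCNG1, TSHZ3, TSHZ1, SEMA3D and PCDH8 kept their calls without any 1 animal, and those of GAP43, CRYM, SP8, LMO4, CDH22 and ROBO2 were each lost without at least 1 of animals 2, 3, 4, 6, 7, 10 and 11 (edgeR FDR up to 0.121).

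Of 12 immediate early genes, which neuronal activity induces, ARC was higher (over all genes 1.34% were higher and 2.47% lower), with 55.9 to 190 CPM in the cuneus against 49.5 to 105 CPM (log2FC 0.44 ± 0.09, edgeR FDR = 0.0248), and the call was lost without animal 2, 7, 10 or 11 (edgeR FDR up to 0.0808). None of 13 circadian clock genes passed, with ARNTL at a log2FC of 0.19 ± 0.06 (edgeR FDR = 0.131) and NPAS2 at -0.06 ± 0.08. ARNTL passed with DESeq2 (adjusted p = 0.0447), with the medTIN covariate (edgeR FDR = 0.0136), over the 72 single libraries (edgeR FDR = 7.64e-05) and without animal 8 (edgeR FDR = 0.0313).

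The libraries had the genes of cortical neurons. SNAP25, SYT1 and SLC17A7 had medians of 7753, 3046 and 629 CPM of single libraries in the cuneus. Over all genes 1.34% were higher and 2.47% lower. Of 10 neuronal genes, 1 was higher and 1, NEUROD6, was lower. By gene the list was even, with 5 log2FC above and 5 below 0 and a median of 0.03. The summed level of the list was 13100 to 17120 CPM in the cuneus against 12740 to 15530 CPM in the parietal sums, higher in 7 of 8 animals. That sum is weighted by its most abundant members, SNAP25 and SYT1. Some microglial and astrocyte genes differed in the same comparison, and their part in the results was not tested. Of 7 microglial genes, CSF1R (log2FC -0.43 ± 0.08) and P2RY12 (log2FC -0.45 ± 0.08) were lower, all 7 had a log2FC below 0, and their sum was 57.4 to 89.5 CPM against 79.7 to 125 CPM, lower in 8 of 8 animals. Of 9 astrocyte genes, the water channel AQP4 (log2FC -0.36 ± 0.06) and the glutamate transporter SLC1A3 (log2FC -0.25 ± 0.05) were lower, and the sum was 3265 to 4359 CPM against 4093 to 4769 CPM. None of 10 oligodendrocyte genes passed, although all 10 had a log2FC above 0 (median 0.21). Their sum was 3853 to 5688 CPM against 2979 to 4659 CPM, higher in 6 of 8 animals, with MBP at a log2FC of 0.27 ± 0.11. None of 6 precursor genes passed, with PDGFRA at a log2FC of -0.01 and CSPG4 at -0.33. None of 8 vascular genes passed (FLT1 at -0.18, PECAM1 at -0.19), nor did any of 8 meningeal genes (COL1A1 at 0.66 ± 0.45, COL1A2 at 0.34 ± 0.28). CSPG4 passed with medTIN and over single libraries (edgeR FDR of 0.0455 and 0.0165), MBP over single libraries (edgeR FDR = 0.0198) and FLT1 with medTIN (edgeR FDR = 0.0351). The calls of CSF1R, P2RY12, AQP4 and SLC1A3 were each lost without at least 1 of animals 2, 3, 4, 7, 10 and 11 (edgeR FDR up to 0.0901). That of NEUROD6 was lost without animal 2, 4, 6, 7, 10 or 11 (edgeR FDR up to 0.116).

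Of 5 choroid plexus genes tested, CLIC6 and KL were lower, against 2.47% of all genes, while TTR, which defines that epithelium, had a median of 0.578 CPM in the cuneus and did not pass. KL, the klotho protein, had 2.84 to 6.01 CPM against 5.49 to 10.4 CPM (log2FC -0.76 ± 0.11). The red cell genes HBA1, ALAS2 and AHSP, with medians of 0, 0.0322 and 0 CPM of single cuneus libraries, had too few reads to be tested. Of 12 genes of thalamus, striatum, hippocampus or cerebellum, DRD1 and CBLN1 (log2FC -0.90 ± 0.18) were lower and none was higher, and both calls were lost without animal 2, 7, 10 or 11.

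Compared with the sum of the 3 occipital sub-regions over 16888 genes, the cuneus had 138 genes higher and 103 lower in the edgeR test with the animal block, or 0.817% and 0.610%. DESeq2 called 349 and 198, and leaving out each animal gave 60 to 123 and 31 to 92, with a count over 1.5 times lower without animal 3, 4, 6, 7, 10 or 11. In the same fit the occipital sum differed from the parietal sum by 1577 higher and 1829 lower genes (9.34% and 10.8%). Both comparisons share samples with the cuneus comparison above, and the values are given side by side. For FSTL1 the log2FC was 1.18 over the parietal sum and -0.55 ± 0.13 against the occipital sum (edgeR FDR = 0.0452), with 1.74 between occipital and parietal. For PVALB it was 0.58 over parietal and -0.56 ± 0.12 against occipital (edgeR FDR = 0.0220). OSTN had -1.10 ± 0.37 against occipital (edgeR FDR = 0.182) and 3.00 ± 0.37 between occipital and parietal. NOX3 was lower in the cuneus than in the occipital sum (log2FC -0.67 ± 0.13), as were PLK5 (-1.20 ± 0.21) and KCNH8 (-0.92 ± 0.17). CBLN2 and RBP4 were higher in the cuneus than in the occipital sum, by 0.50 ± 0.10 and 1.39 ± 0.31 on the log2 scale (edgeR FDR of 0.0127 and 0.0304). CRYM, GABRA5 and GRIA1 were also lower than in the parietal and higher than in the occipital sum, with 0.79, 0.57 and 0.45 on the log2 scale over the occipital sum.

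Of the genes called in both comparisons of the cuneus, 30 were above the parietal and below the occipital sum and 59 were below the parietal and above the occipital sum. Few genes were called in the same direction against both sums: 2 were above both and 2 below both, of 16880 tested in both. Those with a symbol were RXFP1, with log2FC of 0.61 over parietal and 0.89 ± 0.14 over occipital (edgeR FDR = 0.00469), KRT16, a keratin with close paralogs that could share its reads, with 0.93 ± 0.19 and 0.88 ± 0.21, and ACSBG1, an acyl-CoA synthetase, with -0.31 ± 0.06 and -0.27 ± 0.06. RXFP1 had 25.6 to 50.6 CPM in the cuneus and 14.04 to 37.3 CPM in the parietal sums, so that the groups overlapped, and RXFP1 and KRT16 each passed against 3 of the 8 single parietal sub-regions. ACSBG1 had 73.9 to 96.7 CPM in the cuneus and 95.6 to 126 CPM in the parietal sums, which overlapped narrowly. The calls of KRT16 (without animal 2, 3, 7 or 11) and ACSBG1 (without animal 2, 10 or 11) over the parietal sum were lost in leave-one-out fits, with edgeR FDR up to 0.0682 and 0.0607.

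Over whole profiles of 15981 genes, no difference was detected between the closeness of the cuneus to the occipital and to the parietal libraries of the same animal. The mean Pearson correlation of log2 CPM across genes, which are not independent replicates, was 0.977 with the occipital and 0.976 with the parietal libraries. The difference was 0.00119 ± 0.0108 (SD, n = 8), and 5 of the 8 animals had a positive value (p = 0.758, two-sided exact permutation test that flips signs over animals). It was 0.0107 in animal 2, 0.00539 in animal 3, 0.0144 in animal 4, 0.00519 in animal 6 and 0.00497 in animal 7, and it was -0.0141 in animal 8, -0.00228 in animal 10 and -0.0147 in animal 11. The spread between animals was thus larger than the mean. Over the 1000 most variable genes the difference was 0.0192 ± 0.0454 (SD, n = 8), with 6 of 8 animals positive (p = 0.273 by the same exact test). The nearest of the cortical sub-regions was the anterior superior occipital gyrus in animals 4, 7 and 10, the inferior occipital gyrus in animal 2, the angular gyrus in animal 6 and the annectant gyri in animal 11, and it was the fusiform gyrus (number 29) in animal 3 and the lingual gyrus (number 31) in animal 8, neither of them in the parietal or occipital group. Over the 8 animals the highest mean correlations were 0.982 with the lingual gyrus, a part of visual cortex outside the groups compared here, 0.981 with the annectant gyri, 0.981 with the angular gyrus and 0.980 with the anterior superior occipital gyrus, and their SDs of 0.00804 to 0.0165 exceed the gaps between them.

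By edgeR, no gene was called for a dependence of the cuneus and parietal difference on age stage or sex. The test of the difference between mid-aged and young animals called 0 of 17579 genes (0%), with 375 at an unadjusted p below 0.05, and DESeq2 called 1. The test between females and males called 0 genes (0%), with 3884 at an unadjusted p below 0.05, and DESeq2 called 838 genes whose log2FC of cuneus over parietal was higher in females and 230 whose log2FC was lower in females. The unadjusted count was thus far larger for sex than for age, and edgeR and DESeq2 disagreed for sex. Whether the difference depends on sex is therefore not decided here. Each of the age stages and each sex held 4 animals, and each age stage held both sexes.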

How the data were processed

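The authors removed ribosomal RNA, made strand-specific libraries, used Trim Galore 0.4.4 where a sample's reads were of low quality, mapped reads to Mmul 8.0.1 with HISAT2 2.0.5 and counted them on Ensembl genes with HTSeq 0.6.1; the strand and overlap options are not stated. What was deposited are raw read counts for each gene, as whole numbers, and all count columns of regions 12 to 23 and of the other cortex libraries were used as labelled. In each animal the counts of the sub-regions of a group were added up. The tests used edgeR 4.0.16 in R 4.3.3 with filterByExpr, TMM scaling, the quasi-likelihood F test, the animal as a block as in the study's methods, and Benjamini-Hochberg adjustment over all genes tested. CPM are counts relative to the TMM-scaled library size. The SE is the absolute log2FC divided by the square root of F. Profiles were compared as log2 CPM with a prior count of 2. Of 30807 genes, 17572 took their symbol from the reference table and 400 from the study's supplement; 2408 genes share a symbol, and a listed symbol was read from its ID with the highest mean count.

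The named genes were OSTN, FSTL1 and PVALB; the 12 genes in each direction with the largest absolute log2FC at FDR < 0.05, that have a symbol, a mean of 1 CPM or more in the group where they are higher and the same sign in 8 of 8 animals; up to 4 called genes of each list by smallest FDR, or its first listed tested genes where none was called; genes above or below each sub-region; and genes beyond both lobes. Other list members named as called are named by count, and a few genes that the rule names are not reported here. The comparison, members and lists were chosen with earlier results of these data known. Samples of 1 sub-region are separate animals. Alternatives were DESeq2 1.42.0, its size factors, other filters, no block, single libraries, sums without the annectant or postcentral gyri, a covariate for transcript integrity (medTIN) and each animal left out. Figures used matplotlib 3.10.9. ATAC-seq samples, assembled transcripts and non-cortical libraries were not analysed here.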

Additional observations from a re-analysis of the deposited data

Results flagged for a closer look

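Among 90 sets of 8 animals tested for a value far from the others (Dixon's ratio at its 95% critical value, which chance passes in about 1 of 20 sets), 7 were found, and 5 of these were animal 6. All concern the log2 difference between cuneus and parietal sum after adding 0.1 CPM. In animal 6 the difference was -0.317 for PCP4 (0.563 to 1.29 in the other animals), -0.00764 for GRIA4 (-0.39 to -0.221), 0.0192 for TSHZ1 (0.507 to 0.867), 0.118 for CDH22 (-0.54 to -0.313) and -0.0432 for KCNG1 (-1.33 to -0.72). In each of these 5 genes animal 6 lay nearer to its own parietal value, or past it, than any other animal. In animal 8 the difference was -0.235 for HTR2A (0.371 to 0.862 in the others), and in animal 3 it was -1.12 for CSPG4 (-0.499 to -0.0105).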

How the results depend on the processing

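Of the 670 calls, all that could be tested kept their direction under every alternative. Counts are given as higher and lower. Against the parietal sum, the 2-fold counts (32 and 92) were 54 higher by DESeq2, 56 without the annectant gyri, 49 over single libraries and 59 and 146 with the medTIN covariate. All calls were 678 and 757 by DESeq2, 147 and 414 with no filter, and 171 and 474 with the detection rule as filter. They were 372 higher without the annectant gyri, 382 higher without the postcentral gyri, 1043 and 1663 with medTIN, and 1083 and 1120 over single libraries. Leaving out each animal gave 50 to 583 and 124 to 847, and 15 to 55 and 41 to 132 beyond 2-fold. Without the replicate block the counts were 52 and 65 (28 lower beyond 2-fold), 115 of the 670 calls passed, and of 79 called named genes 32 passed. The animals' pairing comes from the labels. Without the block the counts against single sub-regions were 50 and 51 (region 12), 109 and 108 (13), 404 and 533 (14), 163 and 220 (15), 204 and 216 (16), 865 and 962 (17), 195 and 267 (18) and 4 and 0 (19), with 0 and 0 against all 8; against the occipital sum they were 19 and 5, and between occipital and parietal 614 and 811. DESeq2 gave 4 lower genes against region 19 and 4 below all 8, 349 and 198 against the occipital sum, 1 for age and 838 and 230 for sex. Against the occipital sum, leaving out each animal gave 60 to 123 and 31 to 92. The similarity difference reversed to -0.000163 without animal 2 and to -0.000687 without animal 4, and ran up to 0.00346 without animal 11; over the 1000 most variable genes it was 0.0192. PDGFRA, not called, reversed to 0.0073 with DESeq2 and to 0.00703 with its size factors, and leaving out each animal gave -0.026 to 0.0104, above 0 without animal 4 and without animal 7 (0.000403). The causes were not tested. Depth limits genes with few reads in a cuneus library, such as RHAG.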
